A study of Mus musculus with 5 samples.

Results

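Windows of weak nucleosome signal that still show a trough at the transcription start site (TSS) were examined in mouse leukaemia cells with and without PHF6. Of 36447 distinct TSS windows with signal, 2979 had a mean relative signal of at least 0.8 and under 1.3, where 1 is the average of a whole library. Among those, 841 windows (28.2%, or 2.31% of all windows) had a central trough below 0.5 of the flanks and flanks no lower than the ends of the window. The trough was the mean within 50 bp of the TSS, the flanks the mean at 50 to 200 bp on both sides, and the ends of the window the parts at 700 to 1000 bp. The values that chose these windows were averages of both genotypes, weighted equally. The low trough, the high flanks and the low ends of the averaged window are therefore part of the choice and not a finding.

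The cells were pre-B acute lymphoblastic leukaemia cells of the C57BL/6J strain. Every library came from cells that carry BCR-ABL1, a fusion kinase that is always active, and lack p19, taken here as the tumour suppressor p19Arf of the Cdkn2a locus. The 2 wild-type libraries (replicates 1 and 3) had intact PHF6 and the 3 knockout libraries (replicates 1, 2 and 3) were labelled PHF6 null. The series calls the replicates biological. No source used here gives how PHF6 was removed or whether replicates came from different cultures, clones or mice, so the spread behind each p-value may be technical. The deposited rows carry no gene name, coordinate or strand, so no window was assigned to a gene, no marker of B cells and not the Phf6 locus itself could be looked up, and windows are cited by row number.

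At an active promoter, DNA around the TSS is kept free of nucleosomes by transcription factors, the transcription machinery and remodelling enzymes. A well-placed nucleosome sits on either side of this depleted stretch, called +1 downstream and -1 upstream, and further nucleosomes follow at regular steps. ATAC-seq reports this arrangement because the Tn5 transposase cuts open DNA, and the lengths of the fragments tell whether a nucleosome lay between 2 cuts. PHF6 is a nuclear protein with a pair of PHD-like zinc fingers, and its gene is mutated in some human leukaemias.

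The libraries differed in level. As deposited, the mean signal of all rows was 0.533 and 0.538 in wild-type replicates 1 and 3, against 0.60, 0.559 and 0.316 in knockout replicates 1, 2 and 3, and values below keep this order of libraries. Within the 841 windows, the share of bins without any signal was 35.8% and 35.1% in wild type, against 33.8%, 39.4% and 53.9% in knockout. Each of the 841 windows held some signal in every library. Read counts are not part of the files, the depth is therefore unknown, and values carry no counting interval. The order of the columns could be compared only in windows that share runs of identical bins, which are 635 windows or 1.74%: 320 pairs shared them in the same order and 0 in the opposite one. A count of 0 leaves room for at most 0.938% of pairs (3 counts, counting error only). The order in the other windows was not examined. Left and right below are therefore directions along the columns, not upstream and downstream. Of the 841 windows, 14 (1.66%) overlapped another window in this way, against 1.74% of all windows, and 2 such pairs lay wholly inside the set. Overlaps without a shared run of 10 identical bins could not be seen, so these shares are lower limits.

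The first question was what the weak windows with a trough look like. Averaged over the 841 windows, the profile had a narrow trough and a strong maximum on either side. The maxima lay at -135 bp and 135 bp from the TSS in each of the 5 libraries. The lowest bin of the trough lay at -5 bp in wild-type replicate 1 and at 5 bp in the other 4 libraries. The left maximum reached a relative signal of 3.13 and 2.80 in wild type against 3.21, 3.70 and 3.33 in knockout. The right maximum reached 2.84 and 2.65 in wild type against 3.22, 3.66 and 3.45 in knockout. The minimum was 0.398 and 0.436 in wild type against 0.411, 0.274 and 0.305 in knockout. With each library scaled to its own mean, the left and the right maximum of each knockout library thus stood above both wild-type libraries. The minimum overlapped between genotypes.

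**Figure D1:**
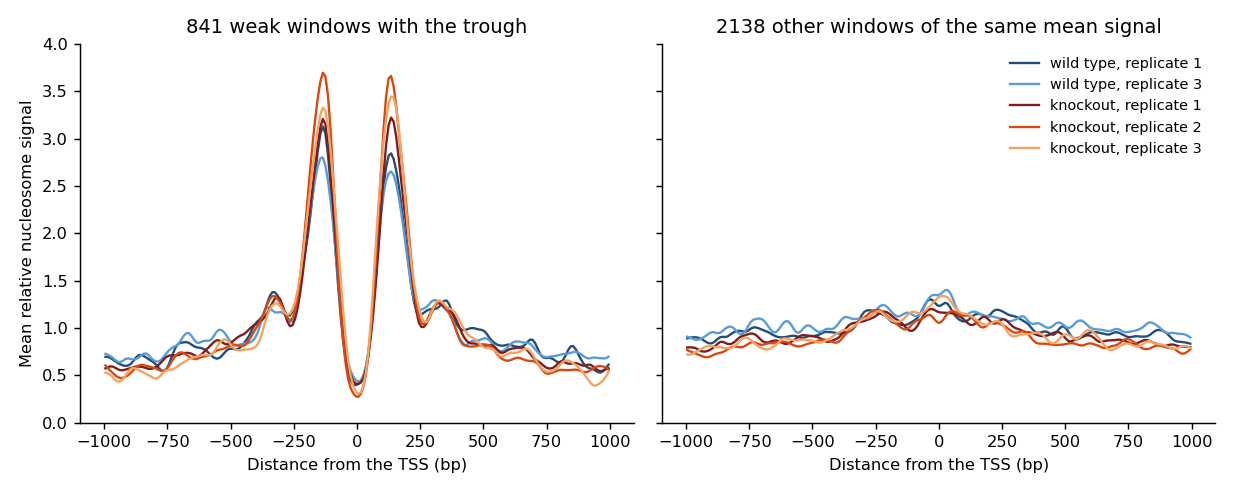
Mean relative nucleosome signal (library average 1) against distance from the TSS in bp, 1 line per library, for the 841 weak windows with the trough and for the 2138 other windows of the same mean signal. The average of the 841 windows peaks at 135 bp on either side in all 5 libraries, and that of the other windows shows no trough at the TSS.

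Beyond the flanks, a further rise was seen in a stretch that the trough, the flanks and the ends of the rule leave out, although it counts towards the mean signal of the window. With the 2 sides of the profile averaged and smoothed over 5 bins, the signal fell to a low at 265 bp everywhere but in knockout replicate 3, where it lay at 275 bp. It then rose to a next maximum at 335 and 315 bp in wild type and at 325 bp in each of the 3 knockout libraries. The next maximum had a relative signal of 1.298 and 1.22 in wild type against 1.26, 1.29 and 1.252 in knockout, and the low before it 1.17, 1.16, 1.06, 1.11 and 1.14 in the same order. This second rise was small but was found in each library. At 250 to 400 bp from the TSS the mean signal was 1.21 and 1.16 in wild type against 1.16, 1.17 and 1.15 in knockout. In the 2138 other windows of the same mean signal it was 1.07 and 1.09 in wild type against 1.02, 0.989 and 0.995 in knockout, lower in each library. This gap is not independent of the rule, since windows with more signal at the ends than in the flanks were placed among the others (ends 0.918 and 0.972 in wild type against 0.839, 0.786 and 0.812 in knockout). Those other windows had a flat average with a slight rise near the TSS, and with the sides averaged their first maximum lay anywhere from 55 to 245 bp.

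Stronger windows of the same form gave the closest comparison. There were 5568 windows with a mean signal of 1.3 or more that met the same trough rule. Their maxima also lay at -135 and 135 bp in every library, and their next maximum lay at 335 bp, or 345 bp in wild-type replicate 3. Over the 200 bins, the average profile of the 841 weak windows correlated with that of the stronger windows at r = 0.994 and with that of the other windows of the same mean signal at r = 0.494. Neighbouring bins share fragments, and the rule itself shaped both pairs, since the other windows are those that did not meet it. Both values are therefore descriptions. In height the classes were far apart. The flanks had 5.76 and 5.05 in wild type against 6.29, 7.35 and 7.17 in knockout in the stronger windows, against 2.24, 2.15, 2.37, 2.70 and 2.62 in the weak ones. The share of a window's signal that lay in the flanks was closer, at 31.5% and 30.3% in wild type against 33.7%, 37.7% and 36.97% in knockout for the weak windows, and 37.0%, 35.6%, 37.8%, 39.3% and 38.5% for the stronger ones.

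The single windows varied widely around this average. On the average of the genotypes, the flanks of the 841 windows ranged from 0.664 to 5.97 with a median of 2.28, and the trough from close to 0 to 2.18 with a median of 0.447. The trough held a median of 0.228 of the flank signal, with the middle 50% of windows between 0.103 and 0.358. The stretch below 0.5 of the flank signal was a median of 140 bp long (middle 50% of windows 100 to 200 bp), against 180 bp (120 to 220 bp) in the stronger windows. The strongest bins on the 2 sides were a median of 330 bp apart, against 340 bp in the stronger windows. In 383 windows (45.5%) the flanks were balanced within a factor of 2. The left flank was more than 2 times the right in 229 windows and the right more than 2 times the left in another 229. The rule averages both flanks, so a window with a single nucleosome beside the TSS can meet it. Among the stronger windows 34.2% were balanced.

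At the edges of the rule, windows inside and outside had nearly the same values. Row 35484 was the weakest window taken (mean signal 0.801) and row 12833 the nearest one left out (0.799). Row 2598 was the strongest window taken (1.299) and row 10883 the nearest one left out (1.3002). Row 518 had a trough at 0.4996 of its flanks and was taken, and row 399 with 0.5005 was not. Row 10333 had flanks at 1.001 times its stronger end and was taken, and row 6720 at 0.9995 times was not. The set is thus a slice of a continuous range and has no natural border.

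How particular the trough is to the TSS was asked by moving the rule. With its centre moved 400 bp to the left, 473 of the 2979 windows of this mean signal met it (15.9%), and 400 bp to the right 438 (14.7%), against 841 (28.2%) at the TSS. The form was therefore 1.78 and 1.92 times as frequent at the TSS as to its left and right at this signal level. Below this level the shares were nearly equal. Of the 16389 windows with a mean signal of 0.4 to 0.8, 13.3% met the rule at the TSS and 12.6% and 12.9% met it to the left and right. Above it the excess was larger, with 54.0% at the TSS against 22.0% and 21.5% in the 3756 windows of 1.3 to 2. In the 5361 windows of 2 to 4 the shares were 60.1%, 25.6% and 25.3%. The weak windows with a trough thus lie at the lowest of these signal levels where the form was more frequent at the TSS than beside it by over 10 percentage points, and the label of a promoter form holds for the set's average more than for each of its windows.

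**Figure D2:**
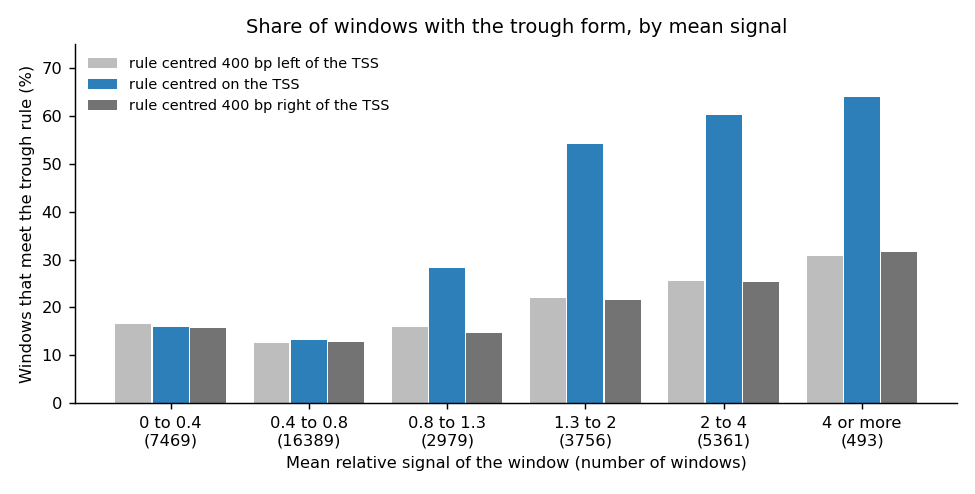
Share of windows in % that meet the trough rule on the average of both genotypes, by mean relative signal of the window, with the rule centred on the TSS (blue) or 400 bp to its left or right (greys). At 0.8 to 1.3 the share is 28.2% at the TSS against 15.9% and 14.7% beside it, and at 0.4 to 0.8 the 3 shares lie between 12.6% and 13.3%.

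Because all 5 libraries chose the windows, the trough was next measured in libraries that the choice did not use. Each library was left out in turn, the rule was applied to the other 4, and the windows so chosen were measured in the library left out. In wild-type replicate 1, the 1045 windows chosen without it had a flank signal of 2.14 and a trough of 0.945, a ratio of 2.27. In wild-type replicate 3, 928 windows gave 2.16 and 1.06, a ratio of 2.04. In knockout replicate 1, 823 windows gave 2.36 and 0.726, a ratio of 3.25. In knockout replicate 2, 900 windows gave 2.67 and 0.546, a ratio of 4.89. In knockout replicate 3, 903 windows gave 2.70 and 0.942, a ratio of 2.87. The flanks were thus about as high as with all 5 libraries, but the trough was shallower in each library than in the set chosen with it, where it was 0.510, 0.561, 0.529, 0.421 and 0.504. Windows of the same level that did not meet the rule in the other 4 libraries had ratios from 0.960 to 1.08. Where the rule was met 400 bp to the left or right, the ratio measured there in the library left out was 1.37 to 2.04, below that at the TSS in every library. Each of these 5 sets differs, and those without a wild-type library lean on a single wild-type library for a weight of 50%, so the ratios do not compare the genotypes. The stronger windows treated in the same way had ratios of 4.21, 3.03, 6.70, 10.5 and 5.98.

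**Figure D3:**
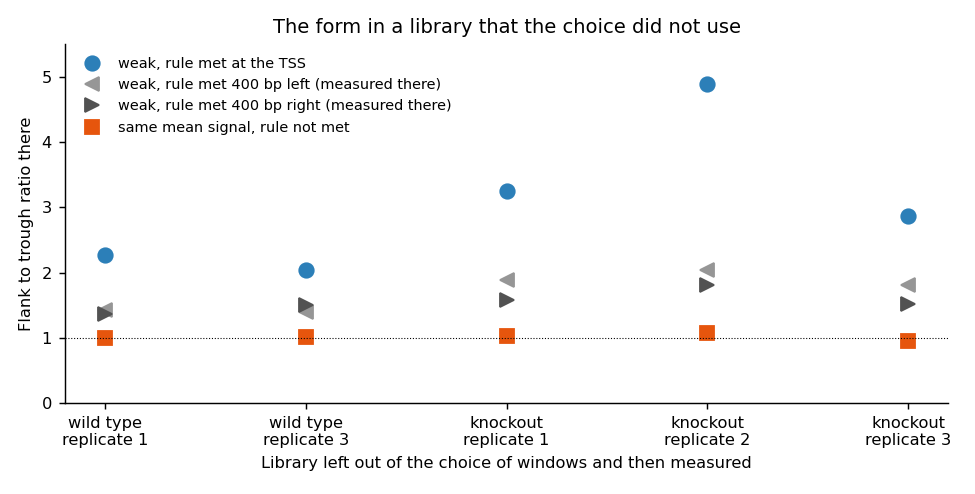
Flank to trough ratio measured in the library named below each column, for windows chosen on the other 4 libraries. Blue circles are weak windows that met the rule at the TSS (2.04 to 4.89), grey triangles those that met it 400 bp away and were measured there (1.37 to 2.04), and orange squares windows of the same mean signal that did not meet it (0.960 to 1.08).

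Window by window, the form was only partly repeated. In single libraries, 559 and 527 of the 841 windows met the trough rule in wild type, against 561, 605 and 575 in knockout. These are 66.5%, 62.7%, 66.7%, 71.9% and 68.4%. The same libraries chose the windows, so these shares are a description. Windows chosen on the other 4 libraries met the rule in the library left out in 49.7% and 48.3% of cases in wild type. In knockout these shares were 59.5%, 64.2% and 57.5%. Of the windows of the same level that did not meet it in those 4, 21.2% to 25.8% met it. Windows chosen by the rule 400 bp to the left or right met it there again in 29.4% to 41.0% of cases. The rule sets no lower limit for the flanks of a single library, so a library with next to no signal in a window can meet it. The rule was met in all 5 libraries singly by 162 windows (19.3%), in 4 by 229, in 3 by 255, in 2 by 146, in 1 by 44 and in none by 5. In the stronger windows of the same form 42.2% met it in all 5. In 480 of the 841 windows both the wild-type mean and the knockout mean met it, in 136 only the wild-type mean, in 207 only the knockout mean and in 18 neither. The median correlation over the bins of a window was 0.223 between the wild-type libraries, 0.255 to 0.327 between knockout libraries and 0.177 to 0.265 between genotypes. It was 0.0733 to 0.151 in the other windows of the same mean signal and 0.4998 to 0.692 in the stronger ones. The bins of a single weak window were thus much less alike between libraries than those of a strong window. The part of the lower signal in this was not tested.

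Of the 162 windows that met the rule in all 5 libraries, the 3 with the highest flanks are described here. The window in row 14335 had a flank signal of 3.18 and 6.13 in wild type against 2.41, 13.2 and 6.23 in knockout. Its trough was exactly 0 in wild-type replicate 3 and knockout replicates 1 and 3, and 0.0272 and 0.00295 in wild-type replicate 1 and knockout replicate 2. Its strongest bins lay at -155 and 145 bp on the average of the genotypes. Its left flank held 5.33 and 12.1 in wild type against 2.94, 15.5 and 3.64 in knockout. Its right flank held only 1.02 and 0.196 in wild type against 1.87, 10.9 and 8.83 in knockout. The flank signal averaged over both sides overlapped between genotypes, while the right flank alone was lower in both wild-type libraries. Knockout replicate 2 stood well above the other 4 libraries in the averaged flank signal.

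The window in row 3059 had a flank signal of 5.26 and 3.81 in wild type against 5.27, 9.45 and 5.03 in knockout. Its left maximum lay between -155 and -135 bp and its right maximum between 125 and 145 bp in the 5 libraries, so the maxima lay within 20 bp of each other between libraries on both sides. The window in row 9157 had 2.74 and 4.60 in wild type against 3.94, 8.74 and 8.25 in knockout, with most of the signal on the left (8.55 against 2.10 on the right, on the average of the genotypes). Its right flank held 0.00253 and 1.31 in wild type against 1.79, 2.23 and 6.57 in knockout. The 3 windows with the highest mean correlation between libraries, in rows 8231, 275 and 31389 (0.835, 0.824 and 0.801), were all dominated by a single nucleosome. Row 8231 had 8.72 on the right and 1.05 on the left, row 275 had 9.66 on the left and 0.758 on the right, and row 31389 had 10.1 on the right and 0.0984 on the left.

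**Figure D4:**
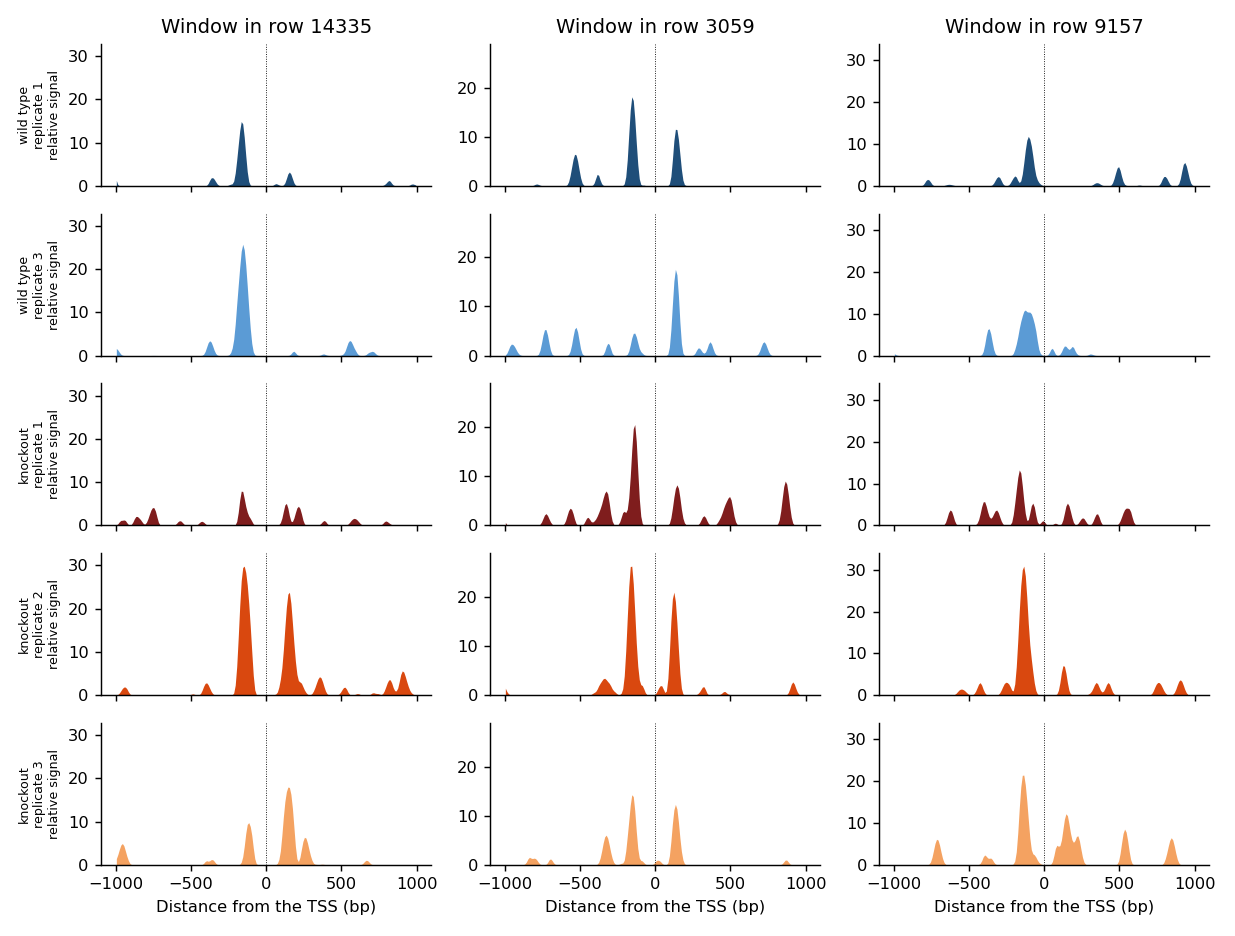
Relative signal against distance from the TSS in bp in 3 windows (columns) and the 5 libraries (lines of panels), with the same vertical scale down each column. Row 3059 shows a peak near 135 bp on both sides in each library, while the heights of the 2 peaks differ between libraries in all 3 windows.

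The main comparison asked whether these windows differed between knockout and wild type. In their average level they did not stand apart, with a relative signal over the whole window of 1.067 and 1.066 in wild type against 1.055, 1.077 and 1.064 in knockout. The knockout libraries lay on both sides of the wild-type pair (difference -0.000938, exact two-sided permutation p = 0.8). The distribution inside the window differed more. The flanks had 2.24 and 2.15 in wild type against 2.37, 2.70 and 2.62 in knockout, or 2.196 ± 0.0653 (SD, n = 2) and 2.57 ± 0.174 (SD, n = 3). The ends of the window had 0.661 and 0.707 in wild type against 0.608, 0.568 and 0.533 in knockout, or 0.684 ± 0.0323 and 0.570 ± 0.0375.

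Each knockout library thus lay above both wild-type libraries in the flanks and below both at the ends. These regions also chose the windows, and 207 windows met the rule only in the knockout mean against 136 only in the wild-type mean, so the comparison is not independent of the choice. In the 480 windows that met it in both genotype means, an alternative added after the data were seen, the flanks had 2.56 and 2.44 in wild type against 2.69, 3.18 and 2.95 in knockout, and the ends 0.614 and 0.663 against 0.592, 0.540 and 0.492. An exact permutation test gave p = 0.2 for the flanks and p = 0.1 for the ends, and 0.1 is the smallest that 2 against 3 libraries allow, so neither could pass 0.05. Over the 10 comparisons made on these windows both had an adjusted p of 0.286. Without scaling of the libraries the flank difference was 0.0784 in place of 0.370, and it had an exact permutation p of 1, with knockout replicate 3 at 0.828 below both wild-type libraries (1.19 and 1.16). The ends without scaling had 0.352 and 0.381 in wild type against 0.365, 0.317 and 0.168 in knockout, and overlapped (difference -0.083, exact permutation p = 0.5). The trough had 0.510 and 0.561 in wild type against 0.529, 0.421 and 0.504 in knockout, and overlapped between genotypes (0.536 ± 0.0360, n = 2, against 0.485 ± 0.0566, n = 3; exact permutation p = 0.4).

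The flank to trough ratio, which needs no scaling between libraries, was 4.39 and 3.83 in wild type against 4.48, 6.43 and 5.20 in knockout. On the log2 scale it was 2.04 ± 0.140 (SD, n = 2) and 2.41 ± 0.261 (SD, n = 3), a difference of 0.37 (exact permutation p = 0.2, adjusted p = 0.286). Knockout replicate 1 stood close to wild-type replicate 1, and the gap between the genotypes rested mainly on knockout replicates 2 and 3. Without knockout replicate 2 the difference was 0.24. In the 480 windows that met the rule in both genotype means the difference was 0.19, with 2.67 and 2.57 in wild type against 2.55, 3.31 and 2.59 in knockout (exact permutation p = 0.9), so the genotypes overlapped there. The trough was exactly 0 in 97 and 90 of the 841 windows in wild type against in 98, 158 and 159 in knockout. Those shares of 11.5%, 10.7%, 11.7%, 18.8% and 18.9% were highest in the 2 knockout libraries that also had the most bins at 0. Their part in the ratio was not tested.

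**Figure D5:**
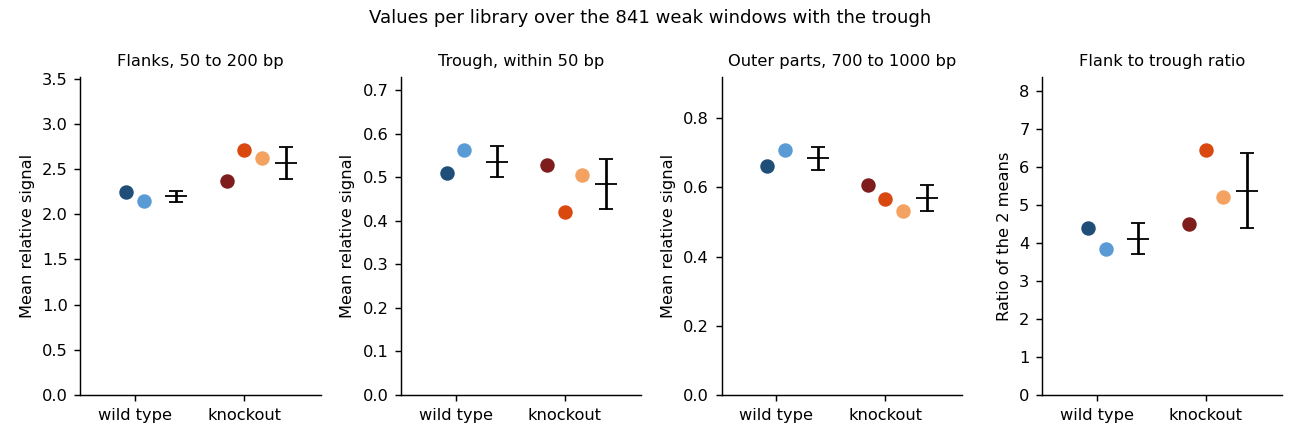
Mean relative signal of the flanks, the trough and the outer parts, and the ratio of flanks to trough, over the 841 weak windows with the trough. Each coloured point is a library (wild-type replicates 1 and 3, and knockout replicates 1, 2 and 3, from left to right), the black bar is the mean and the whisker its SD over libraries. With each library scaled to its own mean, knockout libraries lie above both wild-type libraries in the flanks (2.37 to 2.70 against 2.15 and 2.24) and below them in the outer parts (0.533 to 0.608 against 0.661 and 0.707); without scaling both overlap.

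Whether this differed from other windows of the same mean signal was tested on the difference itself. In each library the whole-window signal of the 841 windows was divided by that of the 2138 others. The log2 ratio was 0.0890 and 0.00856 in wild type against 0.156, 0.249 and 0.173 in knockout. All 3 knockout libraries thus lay above both wild-type libraries, by 0.14 on average, which had an exact permutation p of 0.1 (adjusted p = 0.286). With each library scaled to its own mean, the others carried this gap. Their level was 1.003 and 1.06 in wild type against 0.947, 0.906 and 0.944 in knockout, lower in each knockout library. That of the windows with a trough was alike in the genotypes. As deposited, the others had 0.535 and 0.570 in wild type against 0.568, 0.507 and 0.298 in knockout, and overlapped. The windows with a trough had 0.569 and 0.574 in wild type against 0.633, 0.602 and 0.336 in knockout. Which of the 2 classes carries the gap therefore depends on the scaling. For the log2 flank to trough ratio the same subtraction gave 2.33 and 2.16 in wild type against 2.29, 2.73 and 2.58 in knockout, which overlapped (difference 0.29, exact permutation p = 0.3). In the stronger windows of the same form, the flank to trough ratio was 5.504 and 4.12 in wild type against 7.88, 12.1 and 7.46 in knockout.

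The distance between the strongest bins on the 2 sides gave a difference that depended on how far out they were sought. In the averaged profiles the 2 maxima were 270 bp apart in every library. Within 400 bp of the TSS, the strongest bins of a window were a median of 380 bp apart in both wild-type libraries and 350, 350 and 360 bp apart in knockout (exact permutation p = 0.1, adjusted p = 0.286). Within 300 bp they were 310 and 330 bp apart in wild type against 310, 320 and 310 bp in knockout, and the genotypes overlapped (exact permutation p = 0.7). Windows without signal on a side were left out, unequally between libraries. The search within 400 bp kept 829 and 830 windows in wild type against 826, 822 and 774 in knockout. The search within 300 bp kept 817 and 824 against 820, 812 and 751.

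Single windows were compared in limma, fitted to log2(relative signal + 0.1) over all 36447 windows with Benjamini-Hochberg adjustment over all of them. For the whole window, the flanks, the trough, the outer parts and the contrast of flanks and trough, 0 of the 841 windows passed an adjusted p of 0.05, as did 0 (0%) of all windows. At an unadjusted p under 0.05, 50 of the 841 were higher in knockout over the whole window (5.95%, against 4.54% of all windows) and 43 were lower (5.11%, against 6.67%). For the flanks, 63 were higher (7.49%, against 3.39% of all windows) and 21 lower (2.50%, against 4.42%). For the contrast of flanks and trough, 42 were higher (4.99%, against 4.93%) and 15 lower (1.78%, against 3.15%). For the trough, 7 were higher (0.832%, against 1.28%) and 23 lower (2.73%, against 5.70%). For the outer parts, 15 were higher (1.78%, against 1.69%) and 24 lower (2.85%, against 3.55%). The widest gaps to the share over all windows were the larger share of windows higher in the flanks and the smaller share of windows lower in the trough. In the stronger windows of the same form these 2 shares were 12.2% and 6.79%. In the other windows of the same mean signal they were 2.48% and 4.35%. Flanks and trough are also regions that the rule used to choose the windows.

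The direction of all windows of the set, called or not, followed the averages. The median log2 difference, knockout minus wild type, was -0.02 for the whole window, against -0.21 over all windows and -0.18 over the other windows of the same mean signal. For the flanks it was 0.12, against -0.17 and -0.19. The flanks were higher in knockout in 467 of the 841 windows (55.5%). This share was 44.1% over all windows, 43.4% over the other windows of the same mean signal and 67.1% over the stronger windows of the same form. For the trough it was -0.16, against -0.28 and -0.32. For the outer parts it was -0.34, against -0.33 in both. In the stronger windows of the same form the medians were 0.23 for the whole window and 0.33 for the flanks. In these measures the weak windows stood between the stronger windows and the other windows of the same mean signal. For the trough and the outer parts the stronger windows had -0.55 and -0.003, and the weak windows did not stand between the classes. With no scaling the median of the flanks was -0.04, and that over all windows -0.22. Quantile normalization moved the whole-window median of all windows from -0.21 to -0.0054 and that of the set from -0.02 to 0.10. In these 3 scalings the set's median for the whole window and the flanks stayed above that of all windows. Quantile normalization turned the median of the trough to 0.51 and that of the outer parts to 0.02. It also turned the median of the contrast of flanks and trough from 0.26 (0.09 over all windows) to -0.42 (-0.02 over all windows), so the directions of these 3 medians depend on the scaling. Leaving out 1 library moved the median of the flanks to between 0.02 (without wild-type replicate 3) and 0.19 (without knockout replicate 1), and that of the trough to between -0.34 and 0.02 in the same 2 settings. The median of the whole window lay between -0.08 without wild-type replicate 3 and 0.01 without knockout replicate 1, and that of the outer parts reached -0.20 without knockout replicate 3. Counted by library values alone, the genotypes did not overlap over the flanks in 141 windows with knockout higher (16.8%, against 9.61% of all windows) and in 84 with knockout lower (9.99%, against 13.7%). Over the whole window they did not overlap in 104 (12.4%, against 9.69% of all windows, knockout higher) and 117 (13.9%, against 20.4%, lower). For the contrast the counts were 117 (13.9%, against 11.7%) and 74 (8.80%, against 9.52%), for the trough 62 (7.37%, against 4.77%) and 111 (13.2%, against 14.5%), and for the outer parts 55 (6.54%, against 6.77%) and 131 (15.6%, against 15.8%). Only in the flanks and the whole window did both directions differ from the share over all windows by more than 2 percentage points. In the stronger windows of the same form the shares were 25.8% (knockout higher) and 5.94% (lower) over the flanks. Over the whole window they were 29.2% and 5.33% there.

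The windows with the smallest p over the whole window were picked by p from these data, so their differences may be overstated. Each of the 6 had a mean below 0.8 in the genotype where it was low, and so entered the set through the genotype where it was high. Row 35484 had a relative signal of 0.283 and 0.327 in wild type against 1.04, 1.60 and 1.255 in knockout (log2 difference 1.77, SE 0.41, limma adjusted p = 0.202). Row 24768 had 0.692 and 0.651 in wild type against 1.72, 1.78 and 1.86 in knockout (log2 difference 1.29, limma adjusted p = 0.221). Both windows had groups that were well apart, with close values inside each genotype in row 24768. That window was dominated by its left flank in knockout, at 8.67, 16.1 and 10.9, against 0.846 and 3.20 in wild type. Row 6448 had 0.249 and 0.732 in wild type against 1.79, 1.56 and 1.02 in knockout (log2 difference 1.49, limma adjusted p = 0.282), with a wider spread in both. Without wild-type replicate 1 its difference was 0.87, and without wild-type replicate 3 it was 2.12.

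In the other direction, row 1695 had 1.63 and 2.27 in wild type against 0.539, 0.498 and 0.0998 in knockout (log2 difference -2.26, SE 0.51, limma adjusted p = 0.202). Its flanks held 5.27 and 7.24 in wild type and 0.993, 1.48 and close to 0 in knockout. The signal beside the TSS was thus lower in each knockout library than in both wild-type libraries. Row 15126 had 1.42 and 1.63 in wild type against 0.339, 0.253 and 0.409 in knockout (log2 difference -1.92, limma adjusted p = 0.202). Row 11523 had 1.86 and 1.66 in wild type against 0.653, 0.580 and 0.574 in knockout (log2 difference -1.41, limma adjusted p = 0.232). In these 3 windows the genotypes did not overlap. With the weakest 25% of windows kept out of the fit, 6 of the 841 windows passed (2 higher, 4 lower; 174 of 27335 windows in all). Rows 1695, 15126, 35484 and 6448 were among them (limma adjusted p = 0.00272, 0.0151, 0.0155 and 0.0488), as were rows 10954 and 28308, both lower in knockout and named here after their values were seen.

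For the contrast of flanks and trough, the windows ranked first and second by p on either side had met the rule in the libraries of 1 genotype alone. Row 21048 had a trough of 0.192 and 0.966 in wild type against of 0.000743, 0 and 0 in knockout, with flanks of 0.340 and 1.37 against 2.93, 2.32 and 4.03. Row 9337 had a trough of 2.93 and 1.28 in wild type against 0.0900, 0.0386 and 0.0212 in knockout. The trough rule was met in these 2 windows in each knockout library and in neither wild-type library. Row 12033 had a trough of 0.0409 and 0.0965 in wild type against 1.62, 0.709 and 0.0398 in knockout, with flanks of 1.99 and 2.23 against 0.735, 0.181 and 0.0221. In knockout replicate 3 the trough was as low as in wild type and the flanks were lower still. Row 2623 had a trough of 0.433 and 0.0351 in wild type against 1.05, 1.37 and 1.23 in knockout. In these the rule was met in both wild-type libraries and in no knockout library. All 4 had a limma adjusted p of 0.557 and so did not pass.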

How the data were processed

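ATAC-seq nucleosome signal was analysed in 2 wild-type and 3 PHF6 knockout libraries. Per library, the authors deposited 37310 TSS-centred rows of nucleosome signal in 200 bins of 10 bp. The file names attribute it to NucleoATAC. Bowtie2, MACS2 and mm9 are named in the submitters' processing notes. Versions, settings, the TSS list and the scaling between libraries: not given in the sources used here. Rows without signal (818) and repeated rows (45) were left out. Each matrix was divided by its own mean. Per-window values were log2(value + 0.1), compared in limma 3.58.1 (R 4.3.3; lmFit, eBayes with trend, two-sided, Benjamini-Hochberg over 36447 windows), which was tested on simulated data. Averages per library (Python 3.11.15, numpy 2.4.6) were tested by exact permutation (two-sided, all 10 ways to label 2 and 3 libraries), with Benjamini-Hochberg adjustment over 10 comparisons.

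The windows, regions and tests were chosen with earlier results of these data known. Named windows were the 3 with the smallest whole-window p and the 2 with the smallest contrast p in each direction, the 3 with the highest flanks among those meeting the rule in every library, the 3 most alike between libraries, and those nearest each threshold. Alternatives covered the pseudocount, scaling, low values, the rule's thresholds, the replicate block and each library left out.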

Additional observations from a re-analysis of the deposited data

How the results depend on the processing

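The number of windows (841) was 689 with a trough under 0.4 of the flanks and 823 to 1045 when the rule was applied without 1 library. The count of windows past the threshold over the whole window (0) became 7 with a pseudocount of 0.5, 12 with quantile normalization and 174 without the 25% of windows of lowest mean. In that last setting it became 28 for the flanks and 1 for the outer parts, and 6 of the 841 passed over the whole window. With quantile normalization it was 1 for the outer parts. Without 1 library the counts ranged from 0 to 893 for the flanks, 0 to 3729 for the trough and 0 to 354 for the outer parts, and from 0 to 1, 0 to 48 and 0 to 3 among the 841. The high values came without wild-type replicate 1; without wild-type replicate 3 they were 740, 3225 and 251, and 0, 40 and 1 among the 841. Such fits assume that the lone wild-type library varies like the knockout libraries. The whole window and the contrast gave 0 to 0. The counts of the 841 were added after the data were seen, and the cause of these changes was not tested.

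The average difference over the whole window (-0.000938) changed sign to 0.00297 with the trough under 0.4 of the flanks and ranged from -0.00684 to 0.00433 without 1 library, positive without knockout replicate 1. In the 480 windows that met the rule in both genotype means, added after the data were seen, it was 0.0266, and the trough difference (-0.0513) changed sign to 0.0174. The other averages kept their direction in the settings run, and the log2 flank to trough difference (0.37) was 1.05 with medians in place of means. The labels give wild type and knockout the shared replicate numbers 1 and 3. Deviations from the group means correlated at -0.06 and -0.04 for those numbers, so nothing shows that they pair the libraries. With the replicate block the limma counts were 0 and the log2 flank to trough difference was 0.24. Knockout replicate 2 has no wild-type library of its number, so the block takes it out of the difference. The 0.24 is therefore the value without knockout replicate 2, and the block is no independent check. Bins at 0 and the unknown depth limit what single weak windows can show.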

Other observations

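The place of a row in the deposited matrices was related to how often the form was met. The files do not say how the rows were ordered. When the rows were cut into 10 equal stretches, windows of mean signal 0.8 to 1.3 met the trough rule in 40.2% of cases in the first stretch (174 of 433) and in 14.4% in the stretch numbered 8 (20 of 139). The last stretch had 16.7% (35 of 209). With the rule moved 400 bp to the left the shares were 20.3%, 7.91% and 11.96% in the same stretches, and to the right 21.2%, 11.5% and 13.9%. Among windows of mean signal 1.3 or more, the form was met in 61.2% of 1937 windows in the first stretch, in 44 of 110 in the stretch numbered 8 and in 43.2% of 303 in the last. The weak windows with a trough were thus concentrated towards the start of the files, as were strong windows in general.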
